A study of Rattus norvegicus with 44 samples.

Results

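The genes described here encode the proteasome, the protease that degrades ubiquitin-tagged proteins, and were followed in the liver and kidney of rats given crude MCHM (4-methylcyclohexanemethanol), an alcohol mixture used in washing coal. A gene was included when a probe set, the group of short probes that reads its transcript on the array, was annotated to that gene alone and its symbol began with Psma, Psmb, Psmc, Psmd, Psme, Psmf or Psmg. The rule found 46 genes with 60 probe sets, of 14217 genes and 31042 probe sets measured, and each gene was read by its brightest probe set, which was the same in both organs. Of the 46 genes, 44 encode subunits, assembly factors or regulators, and 2, Psmc3ip and Psme3ip1, share only the start of the symbol: their products interact with a subunit or an activator and are not proteasome parts. Psmb6 and Psme3 had only probe sets annotated to several genes and have no value. Psma3, whose brighter probe set is also annotated to Psma3l, was read by a dimmer one.

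Male Harlan Sprague Dawley rats of 6 to 8 weeks received 0, 0.1, 1, 10, 100, 300 or 500 mg/kg of crude MCHM in corn oil by gavage on 5 consecutive days and were killed the day after the last dose. The vehicle group, written as 0 mg/kg, had the same gavage of corn oil. Liver RNA was read on 27 arrays, 4 per dose except 3 at 0.1 mg/kg, and kidney RNA on 17 arrays, 3 each at 0, 300 and 500 mg/kg and 2 at each other dose, all described as biological replicates. The submitters took out a subset of arrays for batch effects ahead of their own analysis, and the labels name no batch among those used here.

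The values are log2 expression levels, so a difference of 1 is a doubling, and their precision is limited by the number of arrays. Hepatocyte markers (7 of 7) were higher in vehicle liver and proximal tubule markers (6 of 6) higher in vehicle kidney, as the organ labels give them. In the vehicle groups, replicate 2 of the liver and replicate 2 of the kidney stood apart: Xist, a transcript of the inactive X chromosome of females, read 8.25 and 6.95 there, against 2.79 to 3.27 in the other 26 liver arrays and 2.68 to 3.02 in the other 16 kidney arrays. Both carry the label male, and the Y-linked Eif2s3y read within 8.94 to 9.49 in all livers and 9.35 to 10.02 in all kidneys. Replicate 1 of the kidneys at 1 mg/kg also stood apart, with the hepatocyte transcript Alb at 11.06 against 3.85 to 5.86 in the other 16 kidneys. Beside the main results, values without these arrays are given where leaving them out moved a call or a count.

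The proteasome is built from a barrel-shaped core, in which rings of alpha subunits gate the entrance and rings of beta subunits carry the cutting sites, and a regulatory particle that binds ubiquitin chains, unfolds the substrate and feeds it into the core. The base of the regulatory particle holds a ring of ATPases that does the unfolding, and its lid holds the deubiquitinase that removes the tag. In cells exposed to interferon, the beta subunits Psmb8, Psmb9 and Psmb10 replace Psmb5, Psmb6 and Psmb7 to form the immunoproteasome, which cuts peptides suited to MHC class I. In liver, which makes much of the plasma protein and detoxifying enzyme of the body, the proteasome also removes cytochrome P450 proteins and misfolded secretory proteins.

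In the liver at 500 mg/kg, transcripts of the constitutive particle lay slightly above vehicle together: all 30 measured genes of the alpha ring, beta ring, base and lid had a mean above vehicle, by 0.05 to 0.32, with a median of 0.18 (1.13-fold). Among the rings, base and lid, the ATPases and the beta ring had the highest medians, 0.20 for each. No member passed an adjusted p of 0.05 in this comparison by limma with Benjamini-Hochberg adjustment over all 31042 probe sets, where 0.177% of all probe sets did. At an unadjusted p under 0.05, 27 of the 46 members were higher and 0 were lower, against 5.04% of all probe sets higher and 7.42% of those brighter than the organ's median, a background used because every member is in that brighter set. The median difference was 0.16 over the 46 members, 0.00 over all probe sets and 0.01 over the brighter ones. In 17 members all 4 dosed livers lay above all 4 vehicle livers, against 3.4% of all probe sets, and in 0 members did they lie below.

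Read array by array, the median over the 30 constitutive genes, taken from the vehicle mean, was 0.15 to 0.19 in the 4 livers at 500 mg/kg, with 28 to 30 of the genes above the vehicle mean in each. The 300 mg/kg livers lay between 0.09 and 0.21 and the 100 mg/kg livers between 0.00 and 0.19. At 10 mg/kg the lowest and highest livers were at -0.01 and 0.13, at 1 mg/kg at -0.01 and 0.14, and at 0.1 mg/kg at 0.07 and 0.09. The vehicle livers themselves ranged from -0.06 to 0.11, replicate 1 being the highest, so that livers at 500 mg/kg did not overlap vehicle on this measure while those at every lower dose other than 0.1 mg/kg spread widely. The same measure over the brighter probe sets stayed between -0.02 and 0.08 in all livers. The count of the 30 genes above the vehicle mean set the groups apart less than their median did. It was 5 to 29 in single vehicle livers, with 29 in replicate 1, and 24 to 27 at 0.1 mg/kg. At 1 and at 10 mg/kg it was 14 to 28, at 100 mg/kg 15 to 30 and at 300 mg/kg 26 to 30.

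**Figure D1:**
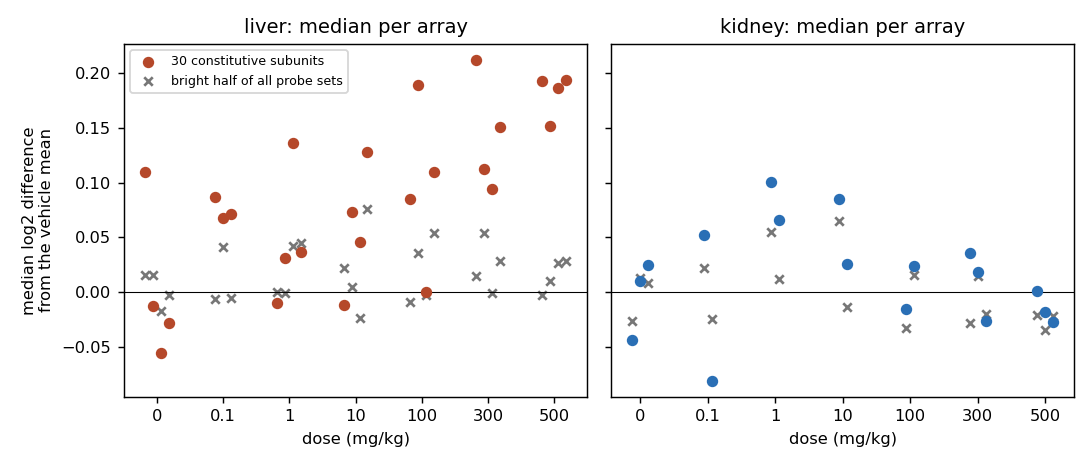
Median log2 difference from the vehicle mean per array (vertical axis) by dose in mg/kg (horizontal axis) in liver and kidney, for the 30 constitutive proteasome genes (filled points) and for the probe sets brighter than the organ's median (crosses). The 4 livers at 500 mg/kg lie at 0.15 to 0.19 and the 3 kidneys at 500 mg/kg at -0.03 to 0.00.

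Psmc5, an ATPase of the base, was the member with the smallest p at 500 mg/kg and the only one past the threshold in any test of dose. Its log2 value was 9.51, 9.44, 9.37 and 9.48 in the vehicle livers. The 300 mg/kg livers read 9.86, 9.64, 9.68 and 9.80, and the 500 mg/kg livers 9.76, 9.80, 9.73 and 9.79. All 8 livers at 300 and 500 mg/kg lay above all 4 vehicle livers. The 100 mg/kg livers read 9.52, 9.88, 9.50 and 9.75 and overlapped both. The difference was 0.32 at 500 mg/kg (SE 0.09, 1.25-fold, adjusted p = 0.168) and 0.30 at 300 mg/kg (SE 0.09, adjusted p = 0.189), neither past the threshold by limma. Over the 7 dose levels coded 0 to 6, Psmc5 rose by 0.055 per level (SE 0.011, adjusted p = 0.0273 by limma). That call was lost without vehicle replicate 2, the array high for Xist (adjusted p = 0.0512), without vehicle replicate 3 (0.0632) and without replicate 4 of 500 mg/kg (0.0793), with slopes of 0.052 to 0.055 per level, and over all 33 alternatives the adjusted p ran from 0.00605 to 0.0793.

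Psmd4, a ubiquitin receptor of the base, read 8.97, 8.90, 8.89 and 8.88 in vehicle livers, and the 500 mg/kg livers read 9.14, 9.11, 9.17 and 9.28, without overlap. Its difference was 0.27 (SE 0.08, adjusted p = 0.223 by limma). Psmb5, which carries the chymotrypsin-like cutting site that bortezomib blocks, read 11.16, 11.10, 10.98 and 11.10 in vehicle livers, and the 500 mg/kg livers read 11.27, 11.28, 11.34 and 11.37, again without overlap. The difference of 0.23 (SE 0.07, 1.18-fold) did not pass (adjusted p = 0.275 by limma). Psmb7, which carries the trypsin-like site, spanned 8.77 to 9.13 in vehicle livers, which overlapped the 9.11 to 9.28 of the 500 mg/kg livers, with a difference of 0.23 (SE 0.08).

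The promoters of Psmc5 and Psmb5 are shown because these are the member called in liver and the catalytic subunit with the smallest p there. Each is RefSeq's window in build GRCr8 from 250 bases before to 50 bases after the annotated start, read along the gene, at chr10:91687303-91687602 on the plus strand for Psmc5 and chr15:32047330-32047629 on the minus strand for Psmb5. Capitals mark a match to TGACNNNGC, the core letters of the antioxidant response element, searched on both strands.
Psmc5: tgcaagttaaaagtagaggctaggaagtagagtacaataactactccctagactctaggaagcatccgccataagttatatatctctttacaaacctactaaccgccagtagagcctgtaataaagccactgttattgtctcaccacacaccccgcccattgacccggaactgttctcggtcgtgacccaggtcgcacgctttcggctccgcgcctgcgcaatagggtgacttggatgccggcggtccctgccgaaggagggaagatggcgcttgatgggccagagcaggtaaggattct
Psmb5: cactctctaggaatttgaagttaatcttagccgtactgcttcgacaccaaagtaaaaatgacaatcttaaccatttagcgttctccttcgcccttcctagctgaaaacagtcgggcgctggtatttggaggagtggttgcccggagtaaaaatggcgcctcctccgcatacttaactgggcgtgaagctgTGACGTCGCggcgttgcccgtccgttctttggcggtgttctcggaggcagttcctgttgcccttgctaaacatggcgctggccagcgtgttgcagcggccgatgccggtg
The Psmb5 window holds 1 match, which starts 60 bases before the start, and the Psmc5 window holds none. Among members, 42 of 46 had a window (Psma7, Psmd6, Psmd12 and Psmd14 had no entry), and 7 of the 42 (16.7%) held the letters: Psma3, Psmb2, Psmb5, Psmd1, Psmd3, Psmd9 and Psme4. Among all 33469 RefSeq windows the share was 12.1%.

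Within the subcomplexes of the liver at 500 mg/kg, the members differed little. In the alpha ring, which gates the core, 6 of 7 genes were higher at an unadjusted p under 0.05, and the exception was Psma3 at 0.05 (SE 0.09). In the beta ring the differences ran from 0.13 to 0.25, 5 of 6 at an unadjusted p under 0.05, and in the ATPase ring from 0.15 to 0.32, again 5 of 6. Psmc4, another ATPase, spanned 9.73 to 9.98 in vehicle livers against 9.98 to 10.12 in the 500 mg/kg livers, a difference of 0.20 (SE 0.07). Among the other base subunits Psmd1, a large scaffold, was 0.18 higher (SE 0.10), with its values of 8.90 to 9.21 overlapping the vehicle's 8.71 to 9.05.

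In the lid the 8 differences ran from 0.10 to 0.28, and 6 reached an unadjusted p under 0.05. Psmd14, the deubiquitinase that removes the ubiquitin chain, was 0.21 higher (SE 0.09), and Psmd11, a scaffold whose level is known to set the amount of assembled particle in stem cells, was 0.17 higher (SE 0.08). Both overlapped vehicle. Genes with further probe sets gave 14 dimmer readings, and 13 had the sign of the brightest one. Those of Psmd14 were 0.27 and 0.19, and the exception was a dim probe set of Psme1 at -0.08.

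The genes outside the constitutive particle differed less uniformly. Of 7 assembly chaperones, which bring the rings together, 6 lay above vehicle, with Psmg1 0.21 higher (SE 0.07): vehicle livers spanned 9.61 to 9.83 and 500 mg/kg livers 9.89 to 10.05, without overlap. Psmg4, the partner of Psmg3 in alpha ring assembly, lay below vehicle, with differences of -0.15 (SE 0.08) for the 500 mg/kg group and -0.17 (SE 0.08) for the 300 mg/kg group. The activators, caps that open the core without ubiquitin, lay at 0.07 for Psme1 (SE 0.08), 0.14 for Psme2 (SE 0.08) and 0.07 for Psme4 (SE 0.09). The inhibitor Psmf1 lay at 0.13 (SE 0.08), and its 4 dosed livers at 9.56 to 9.64 stood above the vehicle's 9.38 to 9.54. None of these passed the test, and Psmc3ip and Psme3ip1, which are not proteasome parts, were at 0.11 (SE 0.12) and 0.10 (SE 0.08).

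**Figure D2:**
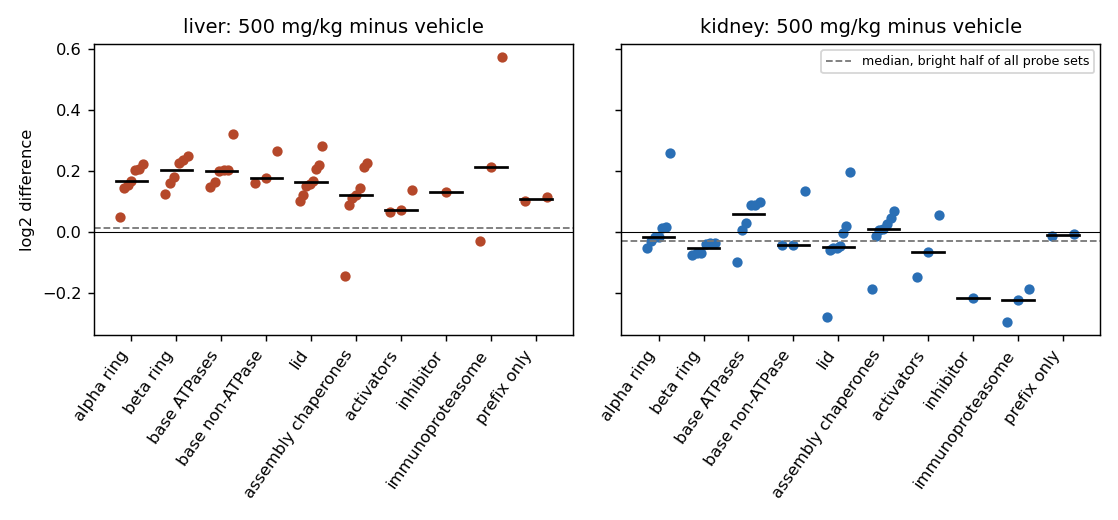
Log2 difference between 500 mg/kg and vehicle (vertical axis) for each of the 46 genes, grouped by subcomplex, in liver and kidney. Points are genes, short bars are subcomplex medians, and the dashed line is the median of the probe sets brighter than the organ's median (0.01 in liver, -0.03 in kidney); in liver every constitutive gene lies at or above 0.05.

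At 300 mg/kg the same 30 constitutive genes again all lay above vehicle, with a median of 0.14 and a range of 0.06 to 0.30. No member was called by limma, where 0.122% of all probe sets were. At an unadjusted p under 0.05, 9 members were higher and 0 lower, against 5.56% of all probe sets and 8.99% of the brighter ones higher. This count ran from 3 to 21 when 1 array was left out, being 21 without the first vehicle array, 5 without the Xist-high one (replicate 2), 5 without replicate 4 and 3 without the first 300 mg/kg array. In 8 members the 300 and vehicle livers did not overlap, all above, against 3.86% of all probe sets. Psmd5, a chaperone of the base, spanned 9.19 to 9.39 in vehicle livers against 9.47 to 9.67 in the 300 mg/kg livers, a difference of 0.24 (SE 0.08, adjusted p = 0.269 by limma). Psma3 spanned 7.69 to 7.75 in vehicle livers against 7.77 to 8.17 in the 300 mg/kg livers, a difference of 0.25 (SE 0.09, adjusted p = 0.312 by limma), while its 500 mg/kg livers spanned 7.67 to 7.85 and overlapped vehicle.

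The 500 mg/kg count also depended on vehicle arrays: the 27 members higher at an unadjusted p under 0.05 became 17 when vehicle replicate 2, the Xist-high array, or replicate 3 was left out, 18 when it was replicate 4 and 29 when it was replicate 1, while all 30 constitutive genes stayed above vehicle each time and their median lay at 0.16 to 0.23. Leaving out the first 500 mg/kg array gave 18.

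Below 300 mg/kg no member and 0% of probe sets were called by limma at 0.1, 1, 10 or 100 mg/kg. Of the 30 constitutive genes, 29, 27, 25 and 30 lay above vehicle at these doses in that order, with medians of 0.07, 0.05, 0.04 and 0.09. At 100 mg/kg, 4 members were higher at an unadjusted p under 0.05, against 3.35% of all probe sets. These comparisons and those at 300 and 500 mg/kg share the 4 vehicle livers and are not independent of each other.

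A comparison without the vehicle arrays set the 8 livers at 300 and 500 mg/kg against the 11 at 0.1, 1 and 10 mg/kg. All 30 constitutive genes were above, by 0.04 to 0.19 with a median of 0.10, where the median of all probe sets was 0.00. No member was called by limma, against 0.554% of all probe sets, and 22 were higher at an unadjusted p under 0.05 against 6.06% of all probe sets. The smallest p values belonged to Psmc1, an ATPase, at 0.18 (SE 0.05, adjusted p = 0.12), to Psmc5 at 0.19 (SE 0.06, adjusted p = 0.131) and to Psmg1 at 0.16 (SE 0.05, adjusted p = 0.133), all by limma. Psmc1 read 9.10 to 9.39 in the low-dose livers and 9.32 to 9.55 in the high-dose ones, which overlap. With only the brighter probe sets tested, 2 members passed, Psmc1 (adjusted p = 0.0441) and Psmg1 (adjusted p = 0.0445), within ranges of 0.0441 to 0.236 and 0.0445 to 0.274 over 26 alternatives each. Without replicate 4 of 300 mg/kg the count of 22 became 13, and without replicate 1 of 10 mg/kg it became 14.

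In the trend over dose levels, Psmc5 was the 1 member of 46 called in liver by limma, against 0.245% of all probe sets. At an unadjusted p under 0.05, 28 members had a rising slope, against 6.12% of all probe sets and 9.69% of the brighter ones, and 1 had a falling slope. Without the Xist-high vehicle liver, 24 had a rising slope and 0 members were called. The median slope was 0.03 per level over the constitutive genes and 0.00 over all probe sets. All 6 ATPases and all 6 measured beta ring genes were among the 28.

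**Figure D3:**
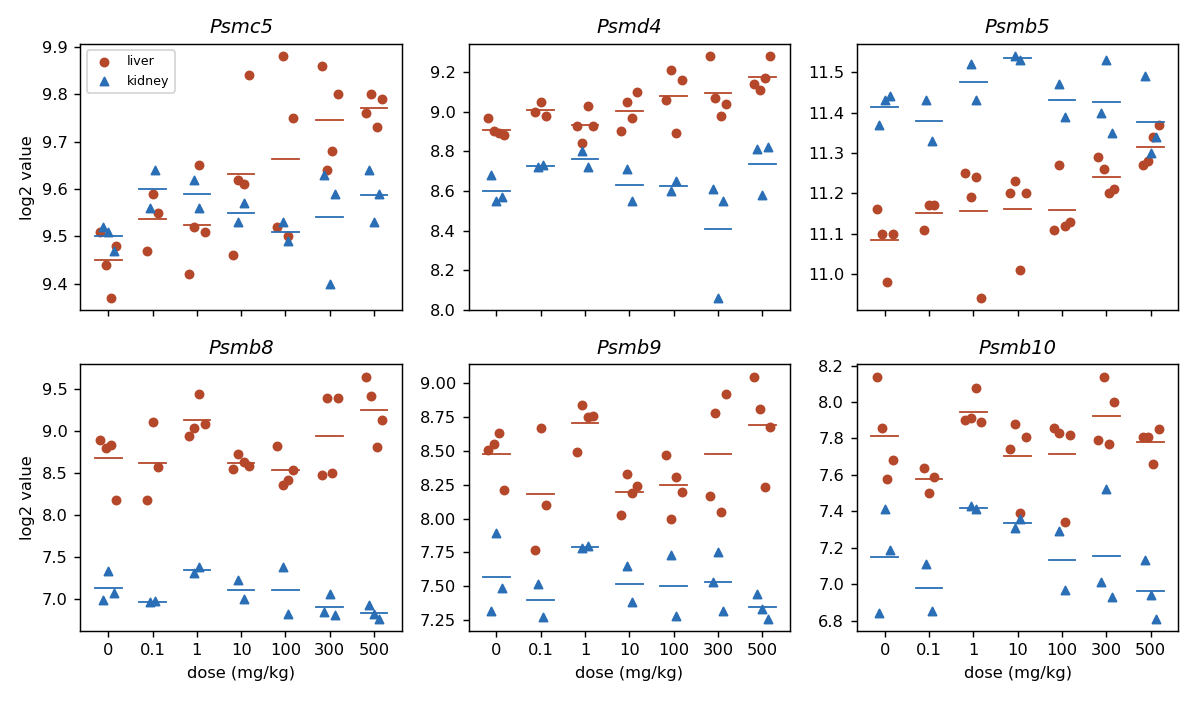
Log2 value of 6 proteasome genes on each array (vertical axis) by dose in mg/kg (horizontal axis), with liver as circles, kidney as triangles and bars at group means. Psmc5, Psmd4 and Psmb5 are constitutive and their 500 mg/kg livers lie above all vehicle livers; Psmb8, Psmb9 and Psmb10 are immunoproteasome subunits, scatter more between livers, and lie lower in kidney.

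In the kidney no comparison of dose called a member, or any probe set, by limma at any dose, in the trend or between high and low doses (0% of 31042). At 500 mg/kg, 17 of 46 members lay above vehicle, with a median of -0.02 and a range of -0.29 to 0.26, and 1 was higher and 3 lower at an unadjusted p under 0.05, a total of 4 against 10.1% of all probe sets in either direction. Without the Xist-high vehicle kidney, 16 lay above vehicle and 0 were higher at an unadjusted p under 0.05. The smallest p values were those of Psmd3, a lid subunit, at -0.28 (SE 0.11, adjusted p = 0.402), Psma7 at 0.26 (SE 0.10, adjusted p = 0.413) and Psmf1 at -0.22 (SE 0.10, adjusted p = 0.481), all by limma. Psmd3 read 8.51, 8.63 and 8.64 in vehicle kidneys and 8.42, 8.23 and 8.29 at 500 mg/kg, without overlap. Of the 46 members, 4 lay wholly above vehicle in this comparison and 6 wholly below. The share of all probe sets without overlap was not computed in kidney. Psmc5 read 9.52, 9.51 and 9.47 in vehicle kidneys and 9.64, 9.53 and 9.59 at 500 mg/kg, all above vehicle, with a difference of 0.09 and a 95% interval of -0.08 to 0.26.

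At 300 mg/kg in kidney, 23 of 46 members lay above vehicle with a median of 0.00, and 0 reached an unadjusted p under 0.05. The smallest p values belonged to Psmc6, an ATPase, at -0.15 (SE 0.08), to Psme4 at -0.17 (SE 0.10) and to Psmg4 at 0.15 (SE 0.09), each with an adjusted p of 0.999 by limma. Kidneys at 300 and 500 mg/kg lay below those at 0.1 to 10 mg/kg for 41 of 46 members, with a median of -0.06, and 3 were lower at an unadjusted p under 0.05, against 4.77% of all probe sets. The brighter probe sets shared that offset, with a median of -0.04, and after a second quantile normalization 16 members lay above and the constitutive median was -0.01. The 3 were Psme4, an activator, at -0.20 (SE 0.07, adjusted p = 0.522), Psmb8 at -0.27 (SE 0.10, adjusted p = 0.53) and Psmf1 at -0.16 (SE 0.07, adjusted p = 0.598), all by limma. The same 3 had the smallest p in the kidney trend, with slopes of -0.040, -0.047 and -0.038 per level for Psme4, Psmb8 and Psmf1, among 4 members falling at an unadjusted p under 0.05 against 4.44% of all probe sets. Leaving out the kidney at 1 mg/kg with high Alb kept the constitutive median at -0.05.

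The change in liver minus the change in kidney at 500 mg/kg tests whether the organs differed. The labels do not tie organs to animals, and the fit treats all arrays as independent, although liver and kidney may come from the same rats: both Xist-high vehicle arrays carry replicate number 2. The difference was positive for 43 of 46 members, with a median of 0.20 against 0.02 over all probe sets, but no member was called by limma, where 0.029% of all probe sets were. The brighter probe sets leaned the same way. Their array medians from the vehicle mean were -0.003 to 0.028 in the 500 mg/kg livers and -0.035 to -0.021 in the 500 mg/kg kidneys, and their median in this comparison was not computed. At an unadjusted p under 0.05, 14 members were above and 0 below, against 4.99% of all probe sets above. The smallest p values were those of Psmd3 at 0.56 (SE 0.16, adjusted p = 0.142), which lay above vehicle in liver and below it in kidney, and of Psmb8 at 0.87 (SE 0.30, adjusted p = 0.242), both by limma. Psmd3 passed without vehicle kidney replicate 1 (adjusted p = 0.047, range 0.047 to 0.612 over 22 alternatives). Without both arrays high for Xist the differences were 0.51 and 0.81, and no member was called. At 300 mg/kg the difference was positive for 42 of 46 members with a median of 0.13, no member or probe set was called by limma, and 7 were above at an unadjusted p under 0.05 against 3.41% of all probe sets. Psmd4 at 0.38 (SE 0.14, adjusted p = 0.639) and Psmg4 at -0.32 (SE 0.12, adjusted p = 0.664) had the smallest p values there by limma.

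The immunoproteasome subunits scattered more between livers of a dose than the constitutive genes did, with standard errors of 0.12 to 0.22 at 500 mg/kg against 0.06 to 0.11. Psmb8, which replaces Psmb5, read 8.89, 8.80, 8.83 and 8.18 in vehicle livers and 8.94, 9.04, 9.44 and 9.09 in the 1 mg/kg livers. The 100 mg/kg livers read 8.82, 8.36, 8.41 and 8.53, the 300 mg/kg livers 8.47, 9.39, 8.50 and 9.40, and the 500 mg/kg livers 9.65, 9.42, 8.81 and 9.13. The order of the groups did not follow dose, and the 300 mg/kg livers split into a low and a high pair. All 3 subunits lay above vehicle at 1 mg/kg and below it at 0.1, 10 and 100 mg/kg. Psmb8 had the largest difference of any member at 500 mg/kg, 0.57 (1.49-fold), with the largest error (SE 0.22, 95% interval 0.12 to 1.02, adjusted p = 0.405 by limma), and it was 0.41 when the low vehicle array, replicate 4, was left out. Psmb9 read 8.51, 8.55, 8.63 and 8.21 in vehicle livers, and the 500 mg/kg livers read 9.05, 8.81, 8.23 and 8.68, a difference of 0.22 (SE 0.19). Psmb10 was at -0.03 (SE 0.12). In kidney at 500 mg/kg all 3 lay below vehicle, by -0.29 for Psmb8 (SE 0.14), -0.22 for Psmb9 (SE 0.16) and -0.19 for Psmb10 (SE 0.17), also not past the test. Psmb8 read 6.98, 7.33 and 7.07 in vehicle kidneys, and the 500 mg/kg kidneys read 6.92, 6.81 and 6.76. It was among the 6 members wholly below vehicle there.

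Deviations of each array from its dose-group mean were set against each other for 9 gene pairs in each organ, pairs chosen after the values had been seen, with p from permutations within dose groups adjusted over the 18 relations. In the 27 livers Psmb8 varied with Psmb9 (r = 0.92, rho = 0.86, permutation p = 3e-05, adjusted 0.00054 for r and 0.00126 for rho, r = 0.90 without the 2 farthest arrays) and with Tap1, the peptide transporter subunit encoded beside Psmb9 (r = 0.83, rho = 0.81, permutation p = 6e-05, adjusted 0.00054 and 0.00126, r = 0.81 without the 2). It varied less closely with Psme1 (r = 0.60, rho = 0.67, adjusted permutation p = 0.0054 and 0.00648, r = 0.62 without the 2). Psmb8 and Psmc5 showed no detectable relation in liver (r = 0.02, rho = 0.10, adjusted permutation p = 0.923 and 0.699), whereas Psmc5 and Psmd4 varied together (r = 0.73, rho = 0.58, adjusted permutation p = 0.00454 and 0.0411, r = 0.67 without the 2). The liver relations of Psmb8 with Psmb10 (r = 0.40, rho = 0.43, adjusted permutation p = 0.0775 and 0.0911), Psme2 (r = 0.47, rho = 0.46, adjusted permutation p = 0.0576 and 0.0881) and Cd74, an antigen presentation gene of macrophages and B cells (r = 0.44, rho = 0.40, adjusted permutation p = 0.0899 and 0.125), did not pass.

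In the 17 kidneys Psmb8 again varied with Psmb9 (r = 0.90, rho = 0.91, exact permutation p = 0.000868, adjusted 0.00454 for r and 0.00651 for rho, r = 0.92 without the 2 farthest arrays) and with Psmb10 (r = 0.75, rho = 0.74, adjusted exact permutation p = 0.0182 and 0.0484, r = 0.78 without the 2). There was no detectable relation with Tap1 (r = 0.02, rho = 0.04, adjusted exact permutation p = 0.923 and 0.885). Psmb8 also varied with Ptprc, the common leukocyte antigen (r = 0.84, rho = 0.80, adjusted exact permutation p = 0.0491 and 0.0484, r = 0.73 without the 2), while in liver that relation did not pass (r = 0.44, rho = 0.43, adjusted permutation p = 0.14 and 0.127). Cd74 did not pass in kidney (r = 0.77, rho = 0.58, adjusted exact permutation p = 0.128 and 0.21). Nor did Psmb8 with Psme1 (r = 0.04, rho = 0.19, adjusted exact permutation p = 0.923 and 0.699), Psme2 (r = 0.12, rho = 0.08, adjusted exact permutation p = 0.879 and 0.885) or Psmc5 (r = -0.18, rho = -0.14, adjusted exact permutation p = 0.7 and 0.699). Psmc5 and Psmd4 had r = 0.85 and rho = 0.62 in kidney, which did not pass either (adjusted exact permutation p = 0.0775 and 0.109), and r was 0.57 without the 2. The organs' coefficients were not tested against each other.

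**Figure D4:**
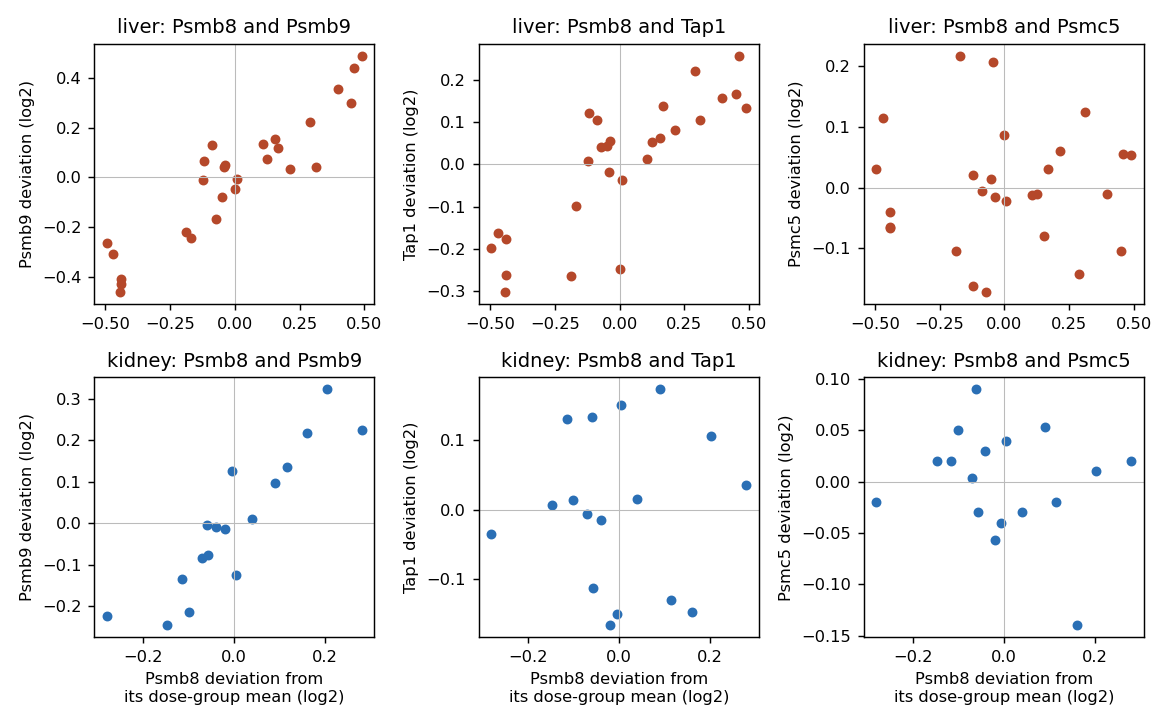
Deviation of Psmb9, Tap1 and Psmc5 (vertical axes, log2) against that of Psmb8 (horizontal axis, log2), each taken from the dose-group mean, for 27 livers (upper row) and 17 kidneys (lower row), 1 point per array. Psmb8 and Psmb9 follow each other in both organs (r = 0.92 and 0.90), Psmb8 and Tap1 have r = 0.83 in liver and 0.02 in kidney (difference not tested), and Psmb8 and Psmc5 in neither (r = 0.02 and -0.18).

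The promoters of Psmb8, Psmb10 and Psme2, the members of the interferon-linked set whose windows hold the core of the interferon regulatory element, are shown because these genes were among those higher in liver than in kidney. That core is GAAA, any 2 bases and GAAA again, the letters that interferon regulatory factors are known to bind, and it was searched on both strands. The windows lie, in RefSeq's build GRCr8 and all on the minus strand, at chr20:4656982-4657281, chr19:50743243-50743542 and chr15:33052702-33053001, and capitals mark the matches.
Psmb8: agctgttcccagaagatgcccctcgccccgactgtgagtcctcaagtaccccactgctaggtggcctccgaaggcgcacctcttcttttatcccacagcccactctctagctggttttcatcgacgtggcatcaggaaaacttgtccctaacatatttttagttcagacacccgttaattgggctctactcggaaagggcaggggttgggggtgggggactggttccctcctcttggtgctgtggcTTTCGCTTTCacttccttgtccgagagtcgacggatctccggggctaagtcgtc
Psmb10: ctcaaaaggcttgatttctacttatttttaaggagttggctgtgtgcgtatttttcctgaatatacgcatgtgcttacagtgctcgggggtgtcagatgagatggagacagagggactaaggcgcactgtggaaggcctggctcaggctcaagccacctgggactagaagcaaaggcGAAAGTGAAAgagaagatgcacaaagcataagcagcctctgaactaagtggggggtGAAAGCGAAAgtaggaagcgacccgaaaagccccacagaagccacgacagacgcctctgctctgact
Psme2: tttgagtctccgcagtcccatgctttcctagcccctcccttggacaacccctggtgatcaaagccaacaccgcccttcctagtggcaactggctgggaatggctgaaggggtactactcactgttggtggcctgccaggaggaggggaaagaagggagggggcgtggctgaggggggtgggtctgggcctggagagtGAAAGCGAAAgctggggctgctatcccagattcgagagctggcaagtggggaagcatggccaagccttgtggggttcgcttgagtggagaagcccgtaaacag
The match of Psmb8 lies on the opposite strand and starts 4 bases before the annotated start. Psmb10 holds 2 matches, starting 73 and 17 bases before, and Psme2 holds 1, starting 53 bases before. The letters were found in 7 of 42 member windows (16.7%), the others being Psma4, Psmb3, Psmd7 and Psmg4, and in 3.92% of all 33469 windows. A match is a run of letters and not evidence of binding.

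Of 46 members compared between vehicle liver and vehicle kidney, 30 were called by limma, 17 higher in liver and 13 higher in kidney, where 61.4% of all probe sets were called, so the count of members called lies close to that background. The median difference was 0.09 over the members, -0.04 over the constitutive genes and 0.11 over all probe sets, and whether the submitters normalised both organs together is not given in the sources used here. All 3 immunoproteasome subunits and all 3 activators were higher in liver. Fewer cells of a type and less RNA per cell cannot be told apart in these tissue samples.

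Psmb8 read 8.18 to 8.89 in vehicle liver and 6.98 to 7.33 in vehicle kidney, 2.93-fold higher in liver without overlap (difference 1.55, SE 0.21, adjusted p = 7.75e-08 by limma). Psmb9 was 1.88-fold higher (0.91, SE 0.19, adjusted p = 0.00012 by limma), with 8.21 to 8.63 in liver and 7.32 to 7.89 in kidney. Psmb10 was 1.59-fold higher (0.67, SE 0.15, adjusted p = 0.000185 by limma). The activator Psme2 was 0.65 higher (SE 0.08), Psme1 0.24 higher (SE 0.07), Psmf1 0.63 higher (SE 0.09) and Psmg1 0.63 higher (SE 0.07). Psmd1 was the highest of the constitutive genes in liver over kidney, at 0.69 (SE 0.10, 1.61-fold, adjusted p = 1.17e-07 by limma).

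On the other side, Psme3ip1 was lower in liver by -1.17 (SE 0.08, adjusted p = 1.1e-15 by limma) and Psmc3ip, a meiotic recombination factor, by -0.70 (SE 0.13, adjusted p = 1.4e-05 by limma), and neither is a proteasome part. Among subunits, the lid genes Psmd3 at -0.62 (SE 0.11, adjusted p = 1.14e-05 by limma) and Psmd6 at -0.61 (SE 0.06, adjusted p = 7.29e-11 by limma) were lower in liver, and Psmb5 was lower by -0.33 (SE 0.07). Psmc5 was not called, at -0.05 (95% interval -0.23 to 0.12). Without both arrays high for Xist, 27 members were called and Psmb8 differed by 1.61. Probe sets of the same gene disagreed more here than between doses: only 7 of 14 dimmer readings had the sign of the brightest. The activator Psme4 read 0.34 by its brightest probe set, 0.90 by a dimmer one and -0.57 by the dimmest, and the lid gene Psmd7 read 0.10 by the brightest and 1.06 by the other.

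**Figure D5:**
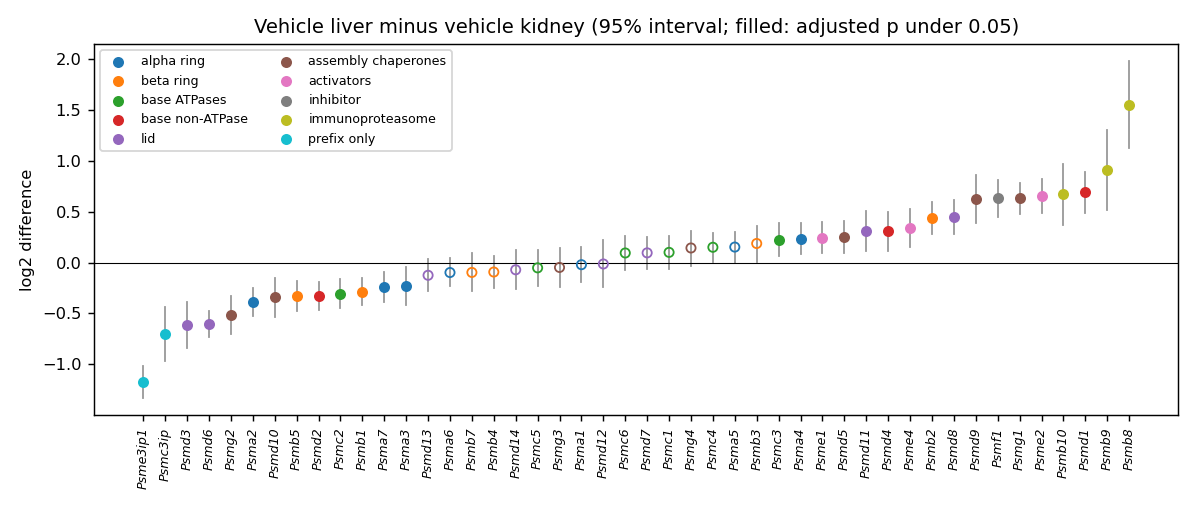
Log2 difference between vehicle liver (4 arrays) and vehicle kidney (3 arrays) for each of the 46 genes, with 95% intervals, coloured by subcomplex; filled points have an adjusted p under 0.05 by limma. The 3 immunoproteasome genes lie at 0.67 to 1.55 and the constitutive genes spread from -0.62 to 0.69 around a median of -0.04.

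Genes that work with the proteasome were read from a separate list. Of 22 measured partners (ubiquitin genes and receptors, deubiquitinases, shuttle factors, the unfoldase Vcp and its cofactors, and the transcription factors Nfe2l1 and Nfe2l2), 17 lay above vehicle at 500 mg/kg with a median of 0.06, none was called by limma, and 3 were higher and 0 lower at an unadjusted p under 0.05, against 5.04% of all probe sets and 7.42% of the brighter ones higher. These were Adrm1, another ubiquitin receptor of the regulatory particle, at 0.19 (SE 0.09), Ecpas, which tethers the particle, at 0.19 (SE 0.08) and Ubqln1, a shuttle factor, at 0.16 (SE 0.07). In livers at 300 and 500 against 0.1 to 10 mg/kg, they lay at -0.02 (SE 0.06), 0.14 (SE 0.05) and 0.06 (SE 0.05). Partners higher there at an unadjusted p under 0.05 were Ecpas, Txnl1 at 0.15 (SE 0.05) and Uchl5 at 0.14 (SE 0.05). Nfe2l1 was lower at that threshold, and no partner was called by limma. Against vehicle, Nfe2l1, the factor known to drive proteasome genes when proteasome activity falls, was at 0.09 (SE 0.09). Pomp, the chaperone of the core, was at 0.06 (SE 0.07). In the comparison without vehicle the sign of Nfe2l1 was reversed, at -0.13 (SE 0.06), and Pomp was at 0.02 (SE 0.05). Of 19 measured genes of class I presentation and interferon response, 9 lay above vehicle, with a median of -0.02 and none called by limma or at an unadjusted p under 0.05. Tap1 was at 0.24 (SE 0.13). In livers at 300 and 500 against 0.1 to 10 mg/kg, Tap1 was at 0.33 (SE 0.08, adjusted p = 0.068 by limma). Stat2 was at 0.17 there (SE 0.07), and no other gene of this list reached an unadjusted p under 0.05. In vehicle animals 14 of these 19 were higher in liver than in kidney and 0 lower by limma, where 61.4% of all probe sets were called in either direction, Tap1 by 1.18 (SE 0.13).

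Markers of lymphocytes, macrophages, endothelium, cholangiocytes, and stellate cells and fibroblasts mostly lay lower in liver at 500 mg/kg while the constitutive proteasome genes lay higher. Of 8 lymphocyte genes 8 were below vehicle, and Jchain, a plasma cell transcript, was called (-0.81, SE 0.17, adjusted p = 0.0472 by limma). The summed level of the list on the linear scale was 376.2 to 434.4 in vehicle livers, above the 309.1 to 341.4 of the 500 mg/kg livers. Of 7 macrophage genes 6 were below, with a median of -0.27 and none called, and the sum was 2960 to 3812 in vehicle and 2582 to 2938 at 500 mg/kg. All 7 stellate cell and fibroblast genes were below, with a median of -0.40, none called, and sums of 2443 to 3596 against 2022 to 2448, which overlap. Endothelial sums (1214 to 1412 in vehicle, 1141 to 1280 at 500 mg/kg) and cholangiocyte sums (417.7 to 658.2 and 439 to 563.7) overlapped too. Every measured gene of these lists also lay below vehicle, at -0.11 to -0.23 for endothelium and -0.03 to -0.45 for cholangiocytes, with none called. The adipocyte sum leaned the other way, from 521 to 650 in vehicle against 581 to 823.7 at 500 mg/kg, also with overlap. The hepatocyte sum was 117100 to 118300 in vehicle and 114500 to 118700 at 500 mg/kg. Alb, in that list, read 14.82 to 14.85 in all 27 livers, where 14.85 was the highest value in the data, so its part could hardly rise. Within the list Apoa1 was at -0.31 (SE 0.08) and Cyp2e1 at 0.25 (SE 0.08), the others lay from -0.1 to 0.01, and none was called. In kidney at 500 mg/kg the macrophage sum was 2832 to 3151 against 3489 to 4440 in vehicle, beside the lower Psmb8, Psmb9 and Psmb10. Most of that kidney sum came from Cd74, which B cells also express. Cd74 read 11.26 to 11.41 at 500 mg/kg and 11.54 to 11.94 in vehicle on the log2 scale. Kidney sums of lymphocyte genes (213.4 to 245.7 against 265.9 to 287.6) and proximal tubule genes (25730 to 29980 against 30070 to 31950) were also lower without overlap. The lymphocyte list of both organs includes Ptprc, the common leukocyte antigen. On the log2 scale Ptprc read 6.10 to 6.50 in kidneys at 500 mg/kg and 6.61 to 6.97 in vehicle kidneys. The other cell type sums in kidney overlapped vehicle. The part of these cell types in the proteasome values was not tested.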

How the data were processed

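RNA from liver (27 arrays) and kidney (17 arrays) was read on Affymetrix Rat Genome 230 2.0 arrays. The deposited table holds the authors' log2 expression values, made with RMA per the submitters' processing notes; no source used here gives RMA's version or says whether both organs were normalised together. Of 31099 probe sets 57 controls were left out. Array medians were 5.28 to 5.36, arrays of an organ correlated at 0.984 to 0.996, and 0 pairs were identical. Genes were named from the platform annotation, of which 20826 probe sets had 1 symbol, 436 several and 9780 none.

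Differences were fitted with limma 3.58.1 in R 4.3.3 on all 31042 probe sets, over all dose groups of an organ or of both organs. Adjustment was by Benjamini-Hochberg, with a threshold of 0.05. The fit was tested on simulated data whose differences were larger than those of the members between doses. That test does not show whether differences as small as theirs would be called. Python 3.11.15 and SciPy 1.17.1 gave summaries and permutations. Named genes were the members past the threshold (up to 8), or the 3 with the smallest p where none passed (2 between organs' changes), the 4 largest differences each way between organs, and a standing list of catalytic, scaffold and regulator genes. Other names were chosen after their values were seen. The members and lists were chosen with earlier results of these data known. Alternatives were a brighter set of probe sets, a second quantile normalisation, centring, a trended robust spread, only the compared groups, a replicate block, the mean of a gene's probe sets and leaving out each array. The labels do not say that a replicate number marks a shared animal, so the numbers were not taken as pairs. Deviations of same-numbered arrays from their group means had a median r of 0.019 in liver and 0.048 in kidney. Of these pairs, 14 of 78 in liver and 12 of 39 in kidney exceeded 0.1. In kidney groups of 2 arrays the 2 deviations are opposite by construction, so this check cannot exclude pairing.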

Additional observations from a re-analysis of the deposited data

Results flagged for a closer look

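Groups of 4 livers were screened for an array far from the other 3, over 27 genes and 6 groups, and 14 of 162 gene groups stood out where chance gives about 1 in 20. Xist read 8.25 in vehicle liver replicate 2 against 3.00 to 3.01 in the others. Psmb8 read 8.18 in vehicle replicate 4 against 8.80 to 8.89. Psmb10 read 7.34 in replicate 3 of 100 mg/kg against 7.82 to 7.86, and 8.08 in replicate 3 of 1 mg/kg against 7.89 to 7.91. Replicate 3 of 100 mg/kg was also low for Psma7 (10.64 against 10.79 to 10.80) and Psme4 (9.30 against 9.65 to 9.71), 3 of the 14.

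Replicate 3 of 10 mg/kg was low for Psmb5 (11.01 against 11.20 to 11.23), Psma3 (7.59 against 7.78 to 7.82) and Psme1 (11.02 against 11.25 to 11.27). Psmd14 read 9.24 in replicate 1 of 10 mg/kg against 9.45 to 9.46. Psmb5 read 11.27 in replicate 2 of 100 mg/kg against 11.11 to 11.13. Psmd1 read 9.12 in replicate 3 of 1 mg/kg against 8.81 to 8.86. Psmd5 read 9.67 in replicate 4 of 300 mg/kg against 9.47 to 9.49, and Psme3ip1 read 8.10 in replicate 4 of 500 mg/kg against 7.89 to 7.91.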

How the results depend on the processing

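The 30 constitutive genes lay above vehicle in liver at 300 and 500 mg/kg under every alternative run, but counts moved. Members higher at an unadjusted p under 0.05 at 300 mg/kg, 9 as reported, were 16 among the brighter probe sets, 4 after a second quantile normalisation, 20 with centred arrays, 19 with a trended robust spread, 4 with only the compared groups and 3 to 21 with 1 array left out. At 500 mg/kg, 27 became 17 with only the compared groups and 17 to 29 with 1 array left out. Between high and low doses, 22 became 8 after the second quantile normalisation and 13 to 24 with 1 array left out, and the members called, 0, became 2 among the brighter probe sets. In the liver trend, 28 became 16 after the second quantile normalisation, and the 1 member called became 3 among the brighter probe sets, 3 with a trended robust spread and 0 to 1 with 1 array left out. For the organ difference of the change at 500 mg/kg, members called were 0 to 1 with 1 array left out. At 500 mg/kg in liver Psmb10 ran from -0.11 to 0.076 with 1 array left out (0.01 without the third 500 mg/kg array), and Psme1 was -0.007 as the mean of its probe sets. The cause was not tested.

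With the replicate number as a block, the 27 became 24, Psmc5 kept its trend call (adjusted p = 0.0429 by limma, 0.00605 to 0.0793 over 33 alternatives), and no count of members called changed; no such fit was made between vehicle organs. With 2 to 4 arrays per group, standard errors of 0.06 to 0.22 in the liver at 500 mg/kg limit what could be called.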
